A study of Mus musculus with 17 samples.

Results

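The opioid receptor genes of the mouse were examined in open chromatin of nucleus accumbens neurons. The 4 members were Oprm1, which encodes the mu receptor, Oprd1, the delta receptor, Oprk1, the kappa receptor, and Oprl1, the nociceptin receptor. Peaks of all 17 ATAC-seq libraries that overlapped the mm10 gene bodies extended by 20 kb on each side were assigned to each gene. Merging the overlapping peaks of all libraries on the autosomes and X gave 281189 regions, 64 of them at the members. Of these, 147420 were called in at least 2 libraries of 1 group and were kept, and 43 of the kept regions lay at the members (31 at Oprm1, 7 at Oprd1, 2 at Oprk1 and 3 at Oprl1).

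ATAC-seq, in which a transposase cuts accessible DNA, was run on NeuN-positive nuclei, which are neuronal, sorted by fluorescence from the nucleus accumbens of C57BL/6 mice (C57BL/6J in the methods of the study) aged 52 to 54 days. Each library pooled tissue of 3 animals. Females in diestrus, females in proestrus and males were each studied without and with cocaine, which made 6 groups of 3 libraries, except for 2 in male cocaine. Cocaine-treated animals received 10 mg/kg intraperitoneally 1 h before tissue was taken. No vehicle injection of the controls was stated, so cocaine cannot be told apart from the injection itself. Diestrus is the low-estrogen and proestrus the high-estrogen stage of the cycle. Diestrus cocaine 2 had no stage in its label and was grouped by its title, and the proestrus cocaine libraries carry the numbers 1, 2 and 4.

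Opioid receptors couple to inhibitory G proteins, which lower cyclic AMP, open inwardly rectifying potassium channels and close presynaptic calcium channels. In the nucleus accumbens, mu and delta receptors respond to enkephalin, kappa receptors respond to dynorphin made by medium spiny neurons and restrain dopamine release, and the nociceptin receptor binds nociceptin but not the classical opioid peptides. The peaks describe how open the DNA at these genes was, not how much receptor was made.

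Libraries held 75458 to 157005 peaks, with fewest in the 2 male cocaine libraries (75458 and 87707). The background pileup, a measure of relative depth, lay between 6.26 and 9.55 reads, and the weakest called summits held 15 to 20 reads, so a missing call means not called at this depth. A promoter peak (within 1 kb of the 5′ end) was present at 9 or 10 of 10 medium spiny neuron genes and at 3 of 3 neuronal genes in each library. At vascular genes it was present in none of 3, and at microglial genes in 0 to 1 of 4. At astrocyte genes it was present at 0 to 2 of 4 in a library, with Gfap called in 16 libraries, Slc1a3 in 2 and Aqp4 and Aldh1l1 in none. At oligodendrocyte genes it was present at 1 of 4 (Mbp) in every library but 1 proestrus cocaine library, which had 4. Of the 4 cortical excitatory neuron genes reported here, it was present at 4 in each of the 3 male controls, 0 in both male cocaine libraries and 0 to 2 in female libraries. In bulk nuclei, fewer cells of a type and less accessibility per cell cannot be told apart.

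Oprm1 occupies chr10:6758506-7038198 on the forward strand, and its regions are named by the distance of the summit from the start site at position 6788809, which 15 of its 31 transcripts share. Its 31 kept regions comprised 3 at promoters, 24 in introns, 3 in exons and 1 downstream. Of these, 21 lay inside Ipcef1, a gene on the opposite strand that overlaps the distal part of Oprm1, and 2 of the 21 (+191.6 and +234.2 kb) lay within 1 kb of an Ipcef1 start site, so peaks there cannot be assigned to 1 of the genes. Oprd1 lies at chr4:132110726-132144486 on the reverse strand, Oprk1 at chr1:5588466-5606131 and Oprl1 at chr2:181715016-181720985, both on the forward strand. Over the members, 9 kept regions were called in 17 libraries, 5 in 14 to 16, 23 in 4 to 13 and 6 in 1 to 3. Another 21 merged regions were called too rarely to be kept (12, 3, 2 and 4 at Oprm1, Oprd1, Oprk1 and Oprl1).

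The sequences around 3 Oprm1 summits, 200 bases each of GRCm38 (mm10) on the forward strand, are shown because the results below turn on them. The windows were chr10:6842382-6842581 (+53.7 kb), chr10:6871531-6871730 (+82.8 kb) and chr10:6916618-6916817 (+127.9 kb), all in introns, and the last also inside Ipcef1. Capitals mark the AP-1 motif TGACTCA on either strand. AP-1 is the Fos and Jun transcription factor that neuronal activity induces.
Oprm1 +53.7 kb: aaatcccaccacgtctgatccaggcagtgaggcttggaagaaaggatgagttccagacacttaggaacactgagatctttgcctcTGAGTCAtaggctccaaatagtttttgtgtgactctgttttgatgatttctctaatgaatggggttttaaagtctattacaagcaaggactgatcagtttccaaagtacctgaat
Oprm1 +82.8 kb: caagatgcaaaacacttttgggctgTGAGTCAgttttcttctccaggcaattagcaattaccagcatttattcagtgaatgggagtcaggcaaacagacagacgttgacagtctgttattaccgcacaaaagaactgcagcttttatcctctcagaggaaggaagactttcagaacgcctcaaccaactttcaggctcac
Oprm1 +127.9 kb: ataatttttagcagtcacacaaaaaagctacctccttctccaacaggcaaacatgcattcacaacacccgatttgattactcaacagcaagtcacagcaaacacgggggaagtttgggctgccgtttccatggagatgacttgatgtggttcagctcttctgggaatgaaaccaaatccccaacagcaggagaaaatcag

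The motif stood within 100 bp of the summit in 6 of 43 member regions, all at Oprm1 (−29.5, +36.4, +53.7, +82.8, +146.1 and +164.4 kb), against 10.5% of all kept regions. The cAMP response element TGACGTCA (0.534% of all kept regions), the palindromic estrogen response element (0.0129%) and the glucocorticoid response element (0.0102%), searched on both strands, were in none of the 43 windows. The GC box GGGCGG was in 2, at the Oprd1 and Oprk1 promoters, against 9.21% of all.

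The promoters of the mu and delta receptors differed in base composition, which is why both are shown, as the 250 bases before a RefSeq start (GRCm38.p6), each 5′ to 3′ on the strand of the gene with GC boxes on either strand in capitals. The Oprd1 window (chr4:132144487-132144736, reverse strand) held 4 GC boxes and 80% G or C. The Oprm1 window (chr10:6788320-6788569, forward strand) held 0 and 50%. Over 32851 RefSeq promoters the median was 52.4%, and 32.7% held a GC box.
Oprm1 promoter: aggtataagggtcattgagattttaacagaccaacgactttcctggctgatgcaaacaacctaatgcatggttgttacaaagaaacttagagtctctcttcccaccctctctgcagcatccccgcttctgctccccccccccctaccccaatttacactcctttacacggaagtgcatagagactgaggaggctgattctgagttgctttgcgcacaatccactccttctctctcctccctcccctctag
Oprd1 promoter: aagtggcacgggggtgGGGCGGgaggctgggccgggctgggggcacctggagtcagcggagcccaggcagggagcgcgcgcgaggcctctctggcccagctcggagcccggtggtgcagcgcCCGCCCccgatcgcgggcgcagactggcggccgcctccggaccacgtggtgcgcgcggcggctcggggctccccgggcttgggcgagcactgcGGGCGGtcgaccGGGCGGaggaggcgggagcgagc

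Both promoters were inside a peak in 17 of 17 libraries. Peak strength, the fold enrichment of the summit pileup over the background of the same library, was highest among the members at Oprm1 +82.8 kb (mean 8.0 over the 17 libraries, percentile 62.8 of the 36847 regions called in all libraries) and at the Oprl1 promoter (7.24, percentile 57.5). The promoters of Oprm1 (4.75), Oprd1 (4.71) and Oprk1 (4.66) were weaker, at percentiles 24.4, 23.7 and 22.4, against a median of 6.43 over all such regions. By this mean the strongest mu receptor peak was an intronic one and not the promoter. In the male controls, however, Oprm1 +127.9 kb (8.78) and +148.0 kb (8.45) exceeded +82.8 kb (6.0).

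**Figure D1:**
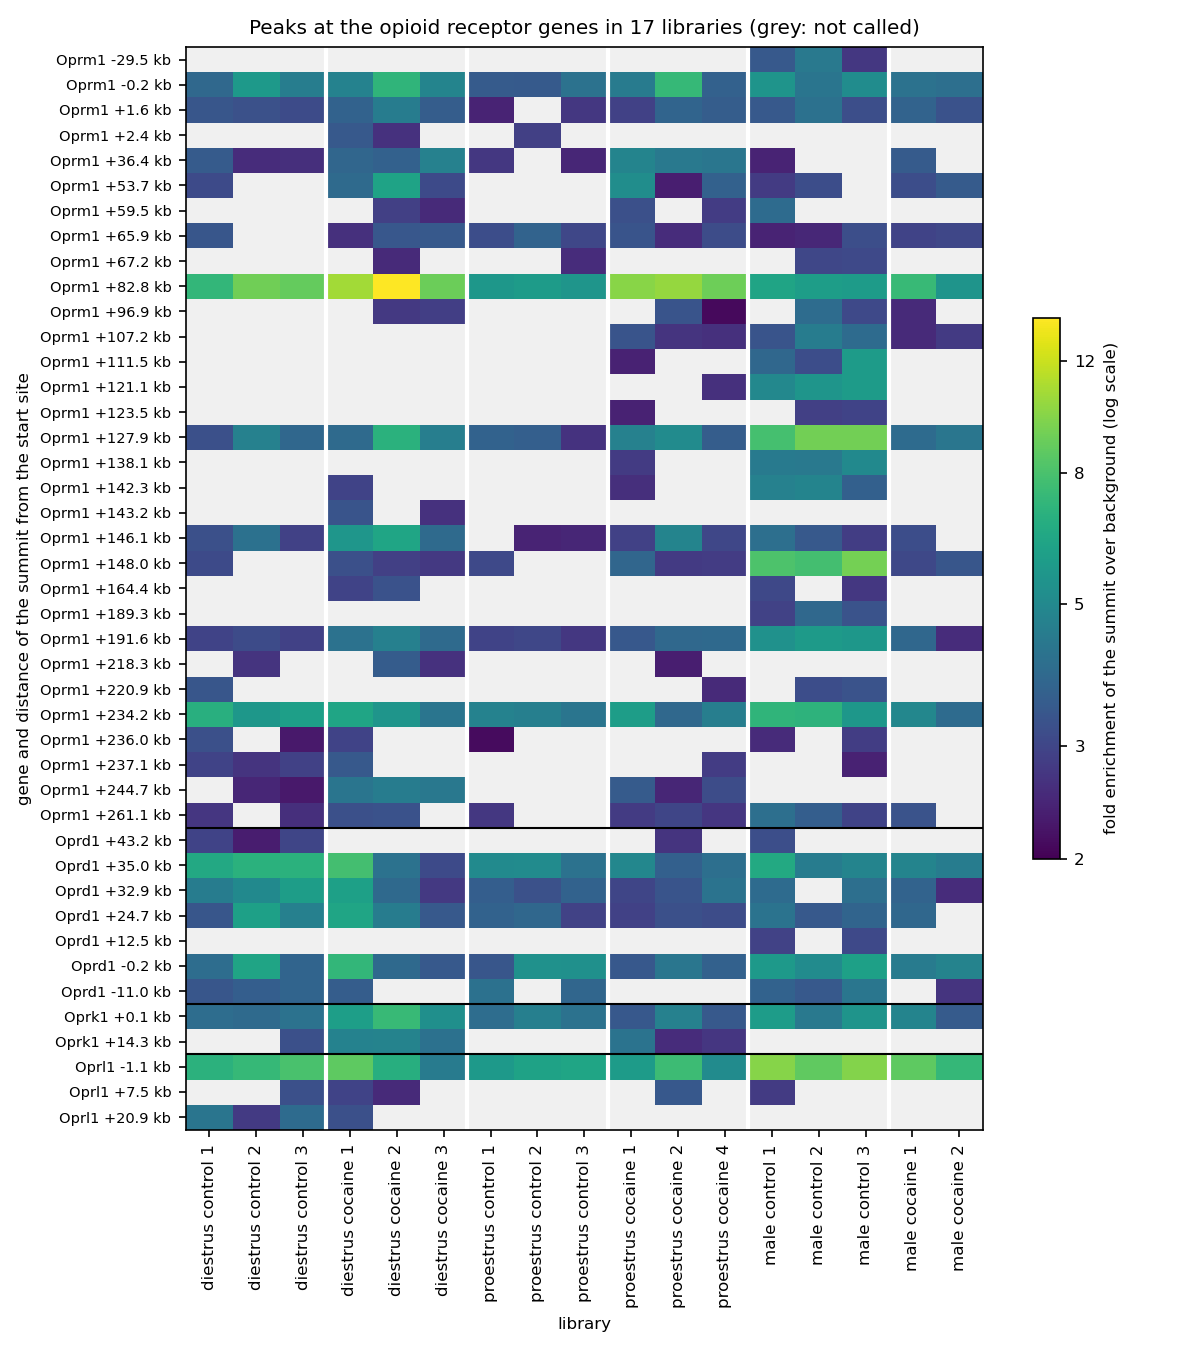
Fold enrichment of the summit over background (color, log scale) in the 43 kept regions (rows, by gene and distance from the start site) of the 17 libraries (columns). Grey cells were not called; 9 rows are filled in all libraries, and the Oprm1 rows at +111.5, +121.1 and +138.1 kb are filled in the 3 male controls and 1 other library each.

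Oprm1 had more peaks on average after cocaine than without it in females and fewer in males. The diestrus controls had 18, 12 and 13 peaks and the diestrus cocaine libraries 20, 23 and 16. The proestrus controls had 13, 8 and 10 and the proestrus cocaine libraries 23, 18 and 20. The male controls had 23, 27 and 29 and the male cocaine libraries 14 and 13. In these unscaled counts the proestrus and male groups did not overlap between treatments, whereas the diestrus groups did. The share of all genes without such overlap was not computed.

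Group means were 14.3 ± 3.21 and 19.7 ± 3.51 (SD, n = 3 each) in diestrus control and cocaine, 10.3 ± 2.52 and 20.3 ± 2.52 (n = 3 each) in proestrus, and 26.3 ± 3.06 (n = 3) and 13.5 ± 0.707 (n = 2) in males. Since the male cocaine libraries held the fewest peaks of all, numbers were also expressed per 100000 peaks of the library. On that scale the male difference was −1.70, against +5.93 in diestrus and +7.98 in proestrus. The mean difference over the 3 strata was +4.07 per 100000 peaks (two-sided exact permutation test within strata, p = 0.02725, adjusted p = 0.126 over 18210 genes), which did not pass the threshold of 0.05. The effect of cocaine in males minus that in females was −8.65 per 100000 (permutation test of sex labels within each treatment, p = 0.0302, adjusted p = 0.159), which did not pass either. The null of this test is no sex difference in either treatment, not only an equal effect of cocaine.

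No member passed in the number of peaks, against 3.67% of 18210 genes for cocaine against control and 5.42% for the male against the female effect. The genes that passed for cocaine were 329 higher and 340 lower with counts scaled to 100000 peaks, and 82 higher and 1751 lower without the scaling. The cocaine differences were −0.0684 per 100000 at Oprd1 (adjusted p = 0.922 by the exact permutation test), +1.11 at Oprk1 (0.0515) and +0.40 at Oprl1 (0.687), with a median of −0.156 over all genes. The direction at Oprd1 turned without any of proestrus control 1, male control 1, male control 3 or male cocaine 1 (+0.0235 to +0.0550), and Oprl1 turned to −0.278 peaks without the scaling.

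**Figure D2:**
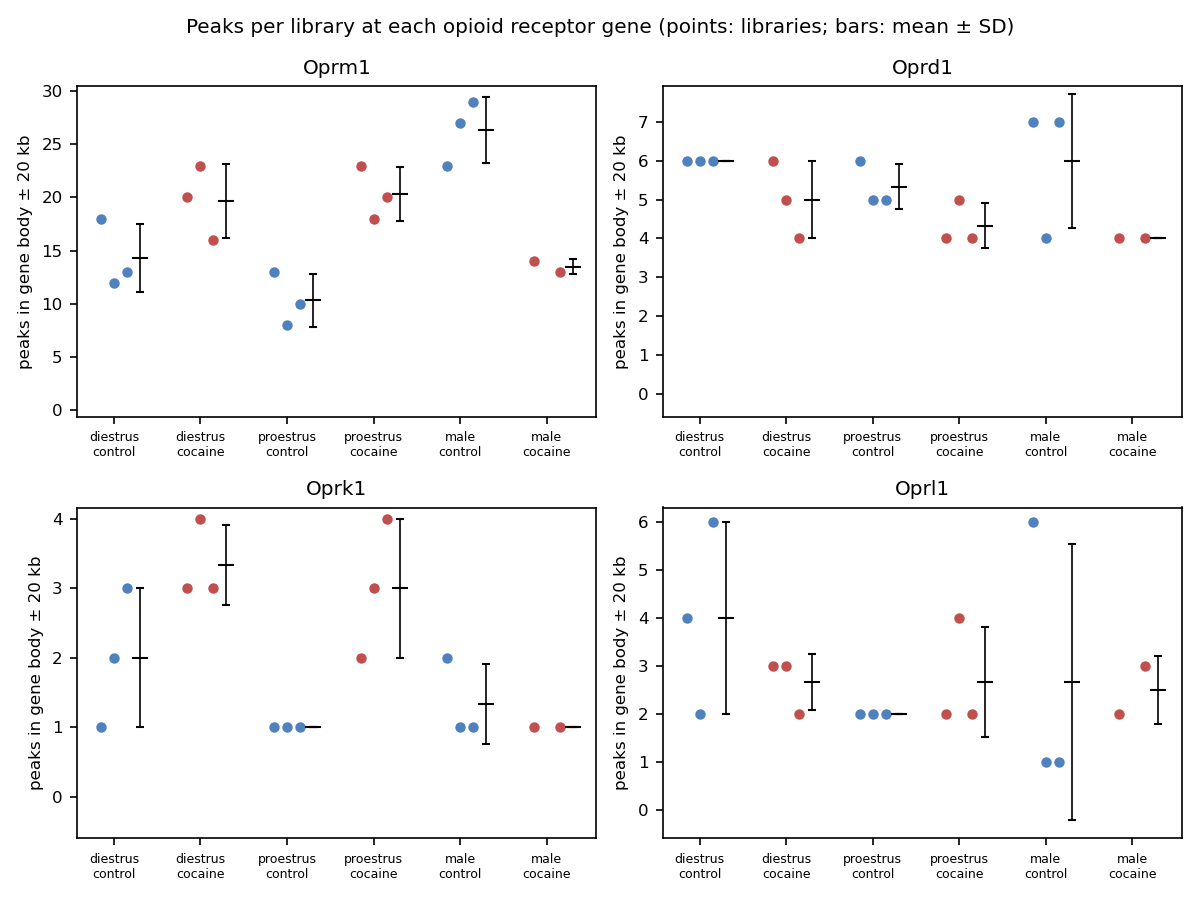
Number of peaks in the gene body and 20 kb each side (vertical axis) of each opioid receptor gene in the 6 groups (horizontal axis). Points are libraries (blue control, red cocaine) and bars the mean ± SD; Oprm1 counts run from 8 in a proestrus control to 29 in a male control.

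Regions called in every proestrus cocaine and no proestrus control library numbered 4 of 43 (2.45% of all kept regions), namely Oprm1 +53.7, +107.2 and +244.7 kb, all in introns, and Oprk1 +14.3 kb. None separated the groups in the converse direction (1.64% of all). In diestrus, 0 of 43 were called in every cocaine and no control library (1.16% of all). Diestrus cocaine 1, 2 and 3 all called +53.7 and +244.7 kb, but so did 1 and 2 of the diestrus controls, respectively. Without diestrus control 1 the diestrus count was 3, without diestrus cocaine 1 or 3 it was 2, and without diestrus control 3 or diestrus cocaine 2 it was 1. The proestrus count fell to 1 when each library was reduced to its 75458 strongest peaks.

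Oprm1 +53.7 kb, which holds an AP-1 motif in the window printed above, was called in every cocaine library. Its fold enrichment was 3.92, 6.16 and 3.10 in the diestrus cocaine libraries, 5.21, 2.35 and 3.67 in proestrus cocaine and 3.17 and 3.49 in male cocaine. Among the controls it was called at 3.10 in diestrus control 1 and at 2.80 and 3.17 in male controls 1 and 2. This was 8 of 8 cocaine and 3 of 9 control libraries (Fisher's exact test, p = 0.00905, adjusted p = 0.273 over 64304 regions). Where called, its summit held 21 to 51 reads.

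Of the 23 member regions called in 4 to 13 libraries, 0 passed an adjusted p of 0.05 in Fisher's exact test of cocaine against control, as did 0.00% of the 64304 regions tested (8385 had an unadjusted p under 0.05). At an unadjusted p under 0.05, 2 members were called more often after cocaine (Oprm1 +53.7 and Oprk1 +14.3 kb; 3.81% of all) and 1 less often (Oprd1 −11.0 kb; 9.23% of all).

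The mu receptor region with the highest mean over all libraries, Oprm1 +82.8 kb, had a higher mean after cocaine in every stratum. Its normalized difference, given below, passed the threshold in proestrus and in males but not in diestrus. Its fold enrichment was 5.60, 5.80 and 5.50 in the proestrus controls and 9.91, 10.3 and 9.11 in the proestrus cocaine libraries. It was 7.23, 9.16 and 8.82 in the diestrus controls against 10.7, 14 and 9.07 after cocaine. In males it was 6.25, 5.92 and 5.82 without and 7.43 and 5.46 with cocaine. The proestrus groups stood clear of each other, while the deposited values of the diestrus and male groups overlapped. For how many of all regions the proestrus groups did not overlap was not computed.

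After quantile normalization of log2 fold enrichments over the 36847 regions called in every library, the proestrus difference at +82.8 kb was 0.71 ± 0.14 (SE; a 1.64-fold increase; limma, adjusted p = 0.00933), and it kept its call without any 1 library (0.68 to 0.74). In males the normalized values were 2.36, 2.36 and 2.33 without and 3.09 and 2.73 with cocaine, and the difference of 0.56 ± 0.16 (adjusted p = 0.0281) passed as well. That call was lost without any 1 of the 3 male controls (adjusted p of 0.0587 to 0.0817) or without male cocaine 1 (0.38, adjusted p = 0.324). In diestrus the difference was 0.37 ± 0.14 (adjusted p = 0.0816), which did not pass. In the order of normalized levels, the diestrus and proestrus cocaine groups overlapped and stood above the diestrus controls, which overlapped male cocaine. Proestrus controls and then male controls followed, each clear of the group above. How often groups stood clear in this way over all regions was not computed. Neither the male minus female difference of these effects (0.01 ± 0.18, adjusted p = 0.965) nor the diestrus minus proestrus one (−0.34 ± 0.20, adjusted p = 0.739) passed.

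The Oprm1 promoter did not pass in any stratum. Its fold enrichment was 3.87, 5.69 and 4.57 in diestrus controls and 4.75, 7.17 and 4.82 after cocaine. It was 3.48, 3.48 and 4.17 in proestrus controls and 4.51, 7.38 and 3.67 after cocaine. In males it was 5.48, 4.27 and 5.16 without and 4.15 and 4.07 with cocaine. After normalization the differences were 0.22 ± 0.21, 0.32 ± 0.21 and 0.19 ± 0.23, with adjusted p-values of 0.495, 0.361 and 0.661 (limma), and neighboring groups in the order of levels overlapped throughout.

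**Figure D3:**
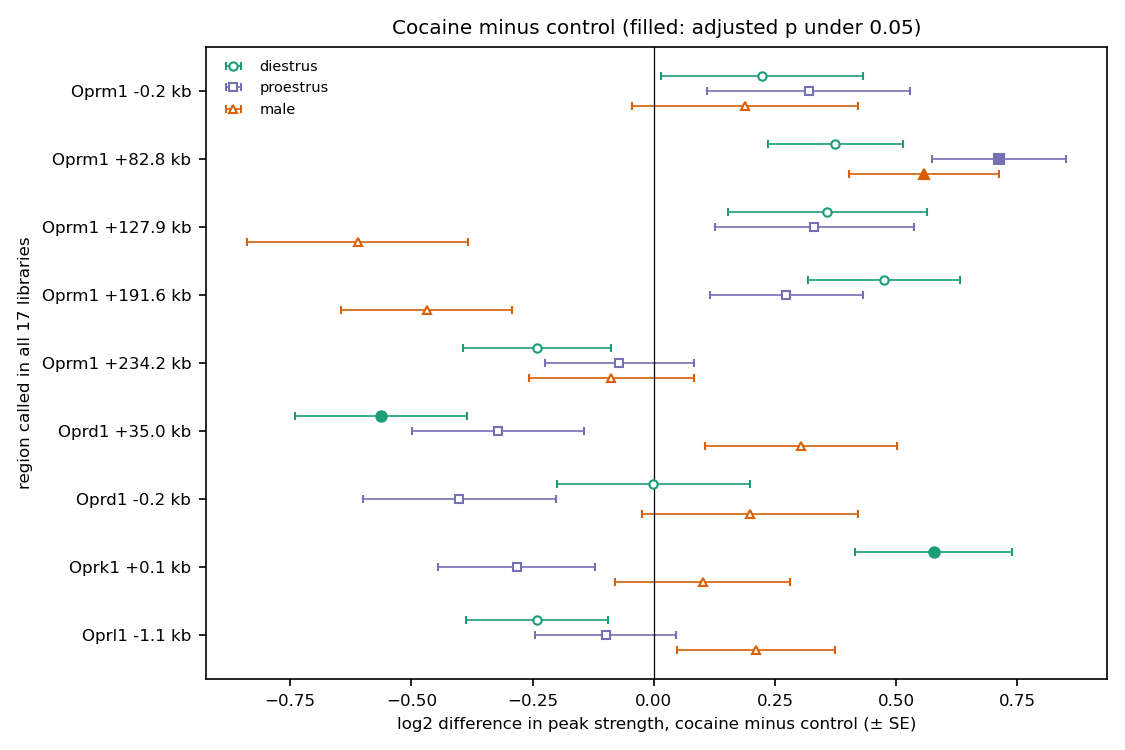
Log2 difference in normalized peak strength, cocaine minus control (horizontal axis, ± SE), in the 9 member regions called in all 17 libraries (vertical axis) for diestrus, proestrus and males. Filled markers passed an adjusted p of 0.05, which were Oprm1 +82.8 kb in proestrus and males and Oprd1 +35.0 kb and Oprk1 +0.1 kb in diestrus.

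Of the 9 member regions called in all libraries, 2 passed in diestrus (9.24% of all 36847), 1 in proestrus (4.25%) and 1 in males (8.0%). The median difference over the 9 was 0.22 in diestrus, −0.07 in proestrus and 0.19 in males, beside 0.0041, 4.8e-05 and 0.014 over all regions. The diestrus count depended on single libraries. It was 0 without any 1 of the diestrus controls or without diestrus cocaine 2 or 3. It was 5 without diestrus cocaine 1. It was 1 without any of proestrus controls 1, 2 and 3, proestrus cocaine 1 and 4 and male control 3. The calls over all regions moved as well, from 3406 in the main fit. They numbered 2186, 837 and 386 without diestrus controls 1, 2 and 3, and 10187, 10 and 17 without diestrus cocaine 1, 2 and 3.

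Male controls had peaks in the Oprm1 window, mostly in introns, that were not called in the other controls. Regions called in every male control and no diestrus control numbered 7 of 43 (9.05% of all kept regions), and the same 7 were called in no proestrus control (10.5% of all). They were Oprm1 −29.5 kb, at an upstream promoter, and +107.2, +111.5, +121.1, +138.1, +142.3 and +189.3 kb, in introns. The intronic ones also lie inside Ipcef1, and −29.5 kb overlaps the protein-coding gene Gm10945. None of the 7 can therefore be assigned to Oprm1 alone. All but +107.2 kb were also absent from both male cocaine libraries, which gave 6 of 43 regions called in every male control and no male cocaine library, against 16.8% of all. These 6 were kept only through the male controls, as no other group called any of them in 2 libraries. The rule for keeping regions thus favors this pattern, at the members as in all kept regions. No member was called in every male cocaine and no male control library (1.66% of all).

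At Oprm1 +121.1 kb the male controls had fold enrichments of 4.97, 5.51 and 5.82, and the only other library with a peak was proestrus cocaine 4 at 2.62. At +148.0 kb the male controls had 8.16, 7.85 and 9.33, and the 10 other libraries that called it had 2.76 to 3.81. At +127.9 kb, called in all 17 libraries, the male controls had 7.90, 9.23 and 9.22. All other libraries lay between 2.65 and 6.92 there, so the male controls stood above each of them at all of these positions. The share of all regions where this held was not computed. These positions also lie inside Ipcef1. Male cocaine was at 3.94 and 4.30 at +127.9 kb and at 3.06 and 3.37 at +148.0 kb, among the female values.

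In the regions called everywhere, male controls exceeded diestrus controls by 0.99 ± 0.20 at +127.9 kb (a 1.98-fold increase; limma, adjusted p = 0.00184) and by 0.70 ± 0.16 at +191.6 kb (adjusted p = 0.00342). They exceeded proestrus controls by 1.06 ± 0.20 (adjusted p = 0.00175) and 0.62 ± 0.16 (0.0129). At +82.8 kb male controls were lower than diestrus controls by −0.65 ± 0.14 (adjusted p = 0.00228). Member regions that passed were 4 of 9 against diestrus (22.9% of all) and 2 of 9 against proestrus (14.1% of all). Both comparisons used the same male controls. The +191.6 kb call against proestrus was lost without proestrus control 3 (adjusted p = 0.0598) or male control 2 (0.0522).

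The direction of the cocaine difference at these positions differed between the sexes. At +127.9 kb the male effect minus the mean female effect was −0.96 ± 0.27 (limma interaction, adjusted p = 0.0219), and at +191.6 kb it was −0.84 ± 0.21 (adjusted p = 0.0117). Within males alone the differences were −0.61 (adjusted p = 0.0996) and −0.47 (0.102), and in females they were between 0.27 and 0.47, none past the threshold. With Oprd1 +35.0 kb, 3 of 9 member regions passed in this contrast, against 16.5% of all. The +127.9 kb call was lost without any 1 of male controls 2 and 3 and male cocaine 1 and 2 (adjusted p of 0.0529 to 0.117), and the +191.6 kb call without male cocaine 2 (−0.47, adjusted p = 0.181).

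Scaled to the library, the 3 male controls had more Oprm1 peaks per 100000 (15.3 to 20.1) than any female control (6.53 to 14), which held for 10.4% of the 18210 genes and for no other member. The same 3 male controls were the libraries in which promoter peaks were called at all 4 cortical excitatory neuron genes reported here (Slc17a7, Neurod6, Emx1 and Tbr1). Emx1 was called in no other library and Neurod6 in 2 others, both proestrus cocaine. Slc17a7 and Tbr1 were more widely called. Slc17a7 had a promoter peak in 9 libraries, among them all 3 proestrus controls, and Tbr1 in 11, among them all 3 libraries of each proestrus group. The part of such cells in the Oprm1 peaks was not tested. From the calls of 3 against 3 libraries, or of 2 against 3, no single region can reach a p below 0.1 in Fisher's exact test. The count of 7 against diestrus plus 1 in the converse direction became 13 without male control 1, and at equal numbers of peaks per library it was 4 against either stage.

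**Figure D4:**
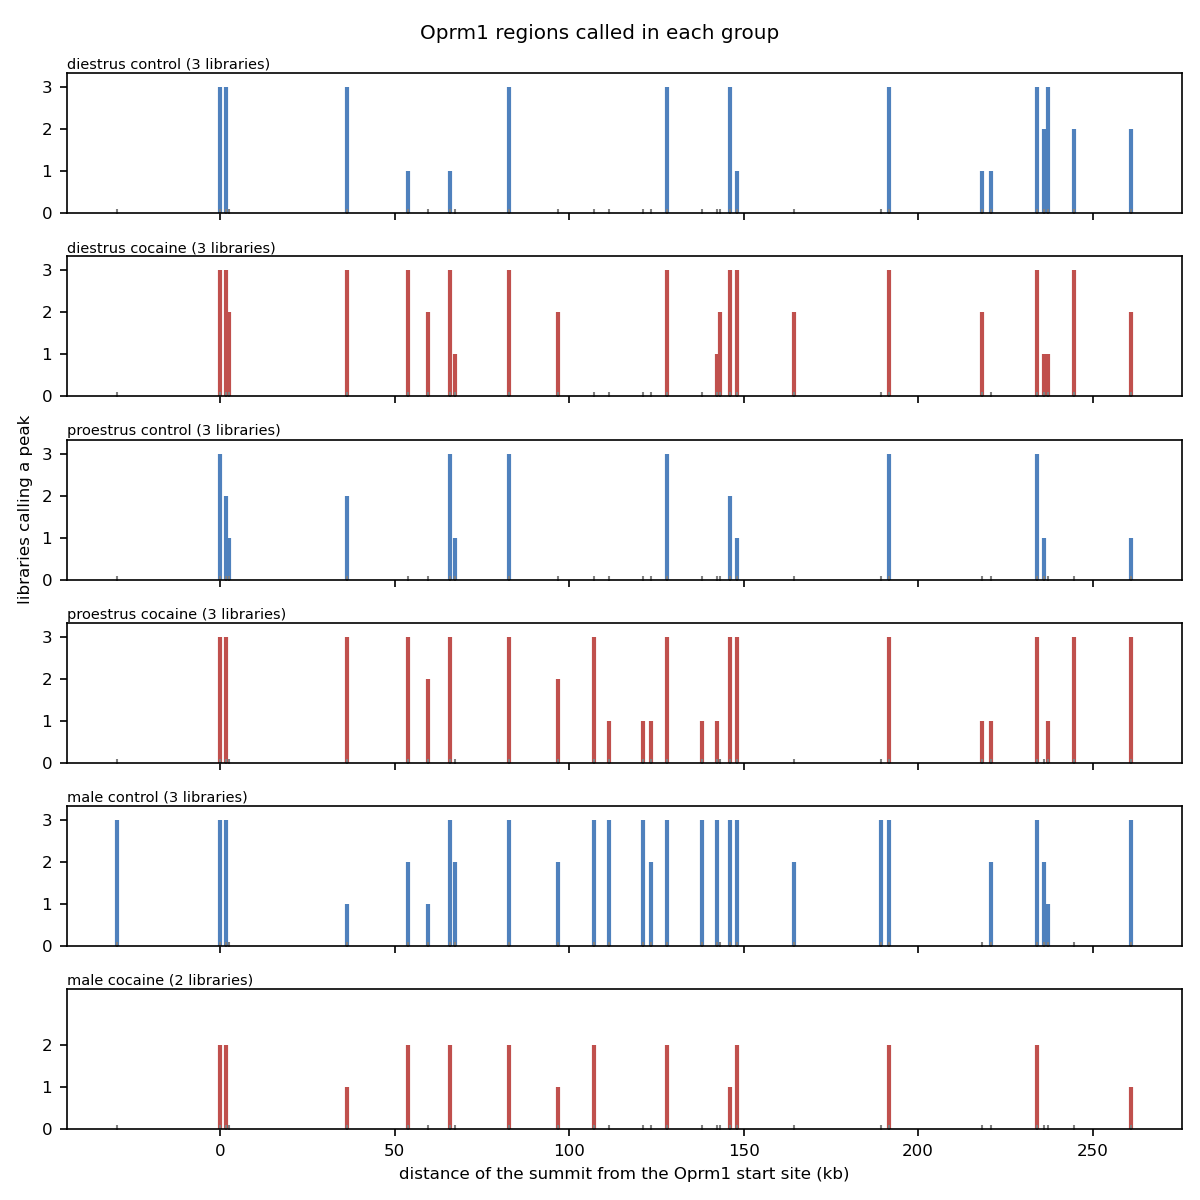
Number of libraries that called each kept Oprm1 region (vertical axis) by distance of its summit from the start site in kb (horizontal axis), 1 panel per group. Regions at +53.7 and +244.7 kb are called in all 3 proestrus cocaine and no proestrus control libraries, and those at −29.5, +111.5, +121.1, +138.1, +142.3 and +189.3 kb in all 3 male controls and neither male cocaine library.

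At Oprd1, the delta receptor gene, openness lay in few regions and was, where it passed, lower after cocaine. Its window held 4 to 7 peaks in each library. The region 35.0 kb downstream of the start site, past the 3′ end and within 1 kb of the start of the unclassified transcript Gm37711, was called in all libraries. Its fold enrichment was 6.45, 6.92 and 6.95 in diestrus controls and 7.84, 4.15 and 3.10 after cocaine. It was 5.07, 5.11 and 4.17 in proestrus controls and 4.91, 3.64 and 4.08 after cocaine, and 6.50, 4.54 and 4.83 in male controls and 4.81 and 4.53 after cocaine. The groups overlapped in every stratum, diestrus cocaine 1 being the highest of all.

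After normalization the diestrus difference there was −0.56 ± 0.18 (limma, adjusted p = 0.0479), and the male minus female effect was 0.75 ± 0.23 (adjusted p = 0.0344). Male controls were lower than diestrus controls by −0.53 ± 0.18 (adjusted p = 0.0337). Each of these calls rested on single libraries. The diestrus call was lost in 13 of 17 fits that left out 1 library (adjusted p up to 0.279, without diestrus cocaine 3), and it remained only without diestrus cocaine 1, proestrus cocaine 2, male control 1 or male control 2. The interaction was lost in 9 of the 17 (up to 0.119, without male cocaine 1), and the male against diestrus difference without any diestrus control or male control 2 or 3 (0.0653 to 0.133).

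The Oprd1 promoter, with the GC boxes printed above, had fold enrichments from 3.38 to 7.24 and passed in no contrast. Its cocaine differences were −0.00074 in diestrus, −0.40 in proestrus (adjusted p = 0.229) and 0.20 in males (0.621). The region at −11.0 kb was called in 8 of 9 control libraries at 3.36 to 4.28, with proestrus control 2 lacking it. After cocaine it was called in 2 of 8, at 3.56 in diestrus cocaine 1 and 2.67 in male cocaine 2 (Fisher's exact test, p = 0.0152, adjusted p = 0.278). Oprd1 +43.2 kb was the 1 member region called in every diestrus control (2.97, 2.34 and 3.01) and no diestrus cocaine library, against 1.26% of all kept regions. It was kept only through the diestrus controls, so the rule for keeping regions favors this pattern. Without diestrus cocaine 1 the count of such regions was 4, and at equal numbers of peaks it was 0.

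At Oprk1, the kappa receptor gene, a second peak was present in females after cocaine. The region at +14.3 kb (chr1:5602559-5603088) overlaps the end of the coding sequence and the 3′ UTR in the last exon. It was called at 4.75, 4.78 and 4.13 in the diestrus cocaine libraries and at 4.21, 2.57 and 2.72 in proestrus cocaine. Of the controls, diestrus control 3 alone called it, at 3.22. No male library of either treatment called it, so 6 of 6 female cocaine, 1 of 6 female control and 0 of 5 male libraries had the peak.

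Over all libraries this was 6 of 8 cocaine against 1 of 9 control libraries (Fisher's exact test, p = 0.0152, adjusted p = 0.278), short of the threshold. Its summits held 23 to 41 reads, against 15 to 20 in the weakest called summits. Together with Oprm1 +244.7 kb, it was 1 of 2 regions called in every diestrus cocaine and no male cocaine library (5.14% of all) and in every proestrus cocaine and no male cocaine library (6.24%). Peaks in the Oprk1 window numbered 1, 2 and 3 in diestrus controls and 3, 4 and 3 after cocaine. They numbered 1, 1 and 1 in proestrus controls and 2, 3 and 4 after cocaine, and 2, 1 and 1 in male controls and 1 and 1 after cocaine. The proestrus groups did not overlap, and the share of all genes of which this held was not computed. The scaled difference over strata of +1.11 (exact permutation p = 0.00225, adjusted p = 0.0515) passed without diestrus cocaine 1 (+1.26, adjusted p = 0.0293).

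The Oprk1 promoter was more open after cocaine in diestrus. Its fold enrichment was 4.0, 3.91 and 4.15 in diestrus controls and 5.94, 7.42 and 5.28 after cocaine, with no overlap. In proestrus it was 4.01, 4.64 and 4.17 without and 3.40, 4.71 and 3.46 with cocaine. In males it was 5.86, 4.41 and 5.49 without and 4.81 and 3.49 with, and in both strata the groups overlapped. The share of all regions whose diestrus groups did not overlap was not computed. The normalized difference was 0.58 ± 0.16 in diestrus (a 1.49-fold increase; limma, adjusted p = 0.0315), −0.28 ± 0.16 in proestrus (0.295) and 0.10 ± 0.18 in males (0.771). The diestrus call was lost without any 1 diestrus control or without diestrus cocaine 2 or 3 (adjusted p of 0.0638 to 0.155) and when only the diestrus libraries were fitted (0.0684). Each group overlapped its neighbor in the order of normalized levels. The diestrus minus proestrus difference of these effects, 0.86 ± 0.23, did not pass (adjusted p = 0.415).

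At Oprl1, the nociceptin receptor gene, the promoter peak was strong on average, though not in every library, and no cocaine difference passed. In diestrus cocaine 3 it lay below Oprm1 +82.8 kb (9.07) and Oprk1 +0.1 kb (5.28), among others. The promoter region was the widest of the member regions (3745 bp), and the highest peak in it was used. The fold enrichment of the promoter peak was 6.97, 7.37 and 7.99 in diestrus controls and 8.67, 6.79 and 4.48 after cocaine. It was 5.70, 6.15 and 6.26 in proestrus controls and 5.81, 7.59 and 5.13 after cocaine, and 9.82, 8.68 and 9.77 in male controls and 8.64 and 7.32 after cocaine. The male controls were the 3 highest of the 17 before normalization. After it, male cocaine, male control, diestrus control and proestrus control followed each other without overlap. Both female cocaine groups lay lowest and overlapped the proestrus controls. How often such orders occurred over all regions was not computed. The normalized cocaine differences were −0.24 (adjusted p = 0.275), −0.10 (0.715) and 0.21 (0.449), and after cocaine males exceeded diestrus by 0.61 (0.0610) and proestrus by 0.56 (0.0637), none of which passed (limma). Peaks in the window numbered 1 to 6, with 6, 1 and 1 in the male controls. A region 20.9 kb downstream of the start was called at 4.26, 2.79 and 3.94 in the diestrus controls and elsewhere only in diestrus cocaine 1, at 3.21.

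**Figure D5:**
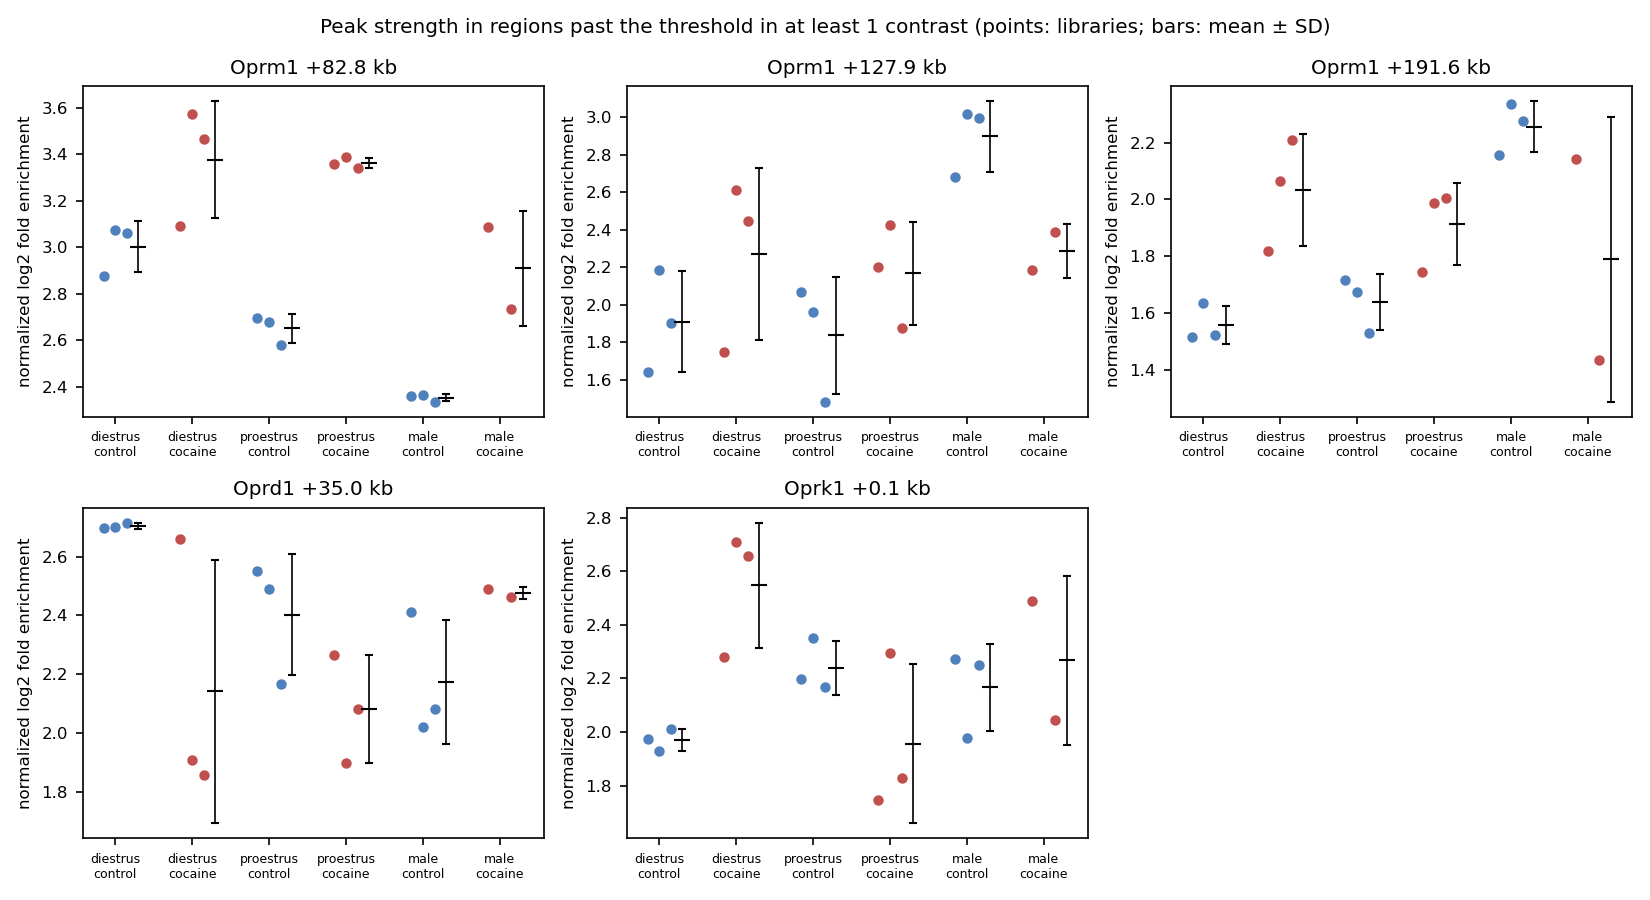
Normalized log2 fold enrichment (vertical axis) in the 6 groups (horizontal axis) for the 5 member regions that passed limma in at least 1 contrast. Points are libraries and bars the mean ± SD. At Oprm1 +127.9 kb the 3 male controls (2.68 to 3.02) lie above all other libraries (at most 2.61), and the share of all regions where this held was not computed.

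Between the estrous stages the members differed in few calls. Regions called in every diestrus and no proestrus control numbered 3 of 43 (3.96% of all), namely Oprm1 +237.1, Oprd1 +43.2 and Oprl1 +20.9 kb, and the converse held for none (0.792% of all). Each of the 3 was kept only through the diestrus controls, so the rule for keeping regions favors this pattern. Without diestrus control 1 the count in both directions was 5, and at equal numbers of peaks it was 1. Oprl1 +20.9 kb was also the 1 region called in every diestrus and no male control (3.02% of all), and none was called in every proestrus and no male control (1.42% of all). In strength, 0 of 9 passed between the controls of the 2 stages (0.470% of all).

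No member was called in every diestrus and no proestrus cocaine library (0.245% of all), and Oprm1 +107.2 kb alone was called in the converse pattern (0.517%). The count in either direction was 3 without diestrus cocaine 3 and 2 without diestrus cocaine 2, the added regions being called in diestrus and not in proestrus cocaine. Oprm1 +107.2 kb was called at 3.30, 2.67 and 2.62 in proestrus cocaine, at 3.31, 4.54 and 3.95 in male controls and at 2.51 and 2.79 in male cocaine, and in no other library. It was therefore also the 1 member called in every male and no diestrus cocaine library (1.64% of all). No member was called in every male and no proestrus cocaine library (1.32% of all). Without male cocaine 1, 6 regions separated males from diestrus and 7 from proestrus after cocaine, and without diestrus cocaine 1 and 3 the former were 5 and 6.

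In strength after cocaine, 0 of 9 member regions passed between the stages (0.00% of all, with 2340 of 36847 regions at an unadjusted p under 0.05), 0 of 9 between males and diestrus (1.33%) and 0 of 9 between males and proestrus (2.10%). For the diestrus minus proestrus effect of cocaine 0 of 9 passed as well (0.00%, with 2648 at an unadjusted p under 0.05). Without diestrus cocaine 1, 3 regions passed between males and diestrus and 1 between males and proestrus, and without proestrus cocaine 2 it was 1 each. Over all regions the calls rose too, from 490 and 772 in the main fit. They were 3061 and 1777 without diestrus cocaine 1, and 1108 and 5303 without proestrus cocaine 2.

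Other genes of opioid signalling were described in the same way, by peaks per 100000 over the 3 strata. Of 32 genes in the list, 2 passed with more peaks after cocaine, 0 with fewer and 30 did not (3.67% of all genes passed, in both directions together), with a median difference of −0.807 against −0.156 over all genes. The 2 were Pdyn, the dynorphin precursor and so the source of the kappa ligand (+1.64, exact permutation test, adjusted p = 0.0356), and Kcnj3, a subunit of the potassium channel that the receptors open (+6.65, adjusted p = 0.0384). Pdyn differed by +1.89 in diestrus, +1.38 in proestrus and +1.64 in males. The enkephalin precursor gene Penk (−1.17, adjusted p = 0.424), Pomc (−1.34, 0.198) and the nociceptin precursor gene Pnoc (+0.92, 0.266) did not pass. By the permutation of sex labels within each treatment, the male minus female effect passed at 2 of the 32 (5.42% of all genes). These were Penk (adjusted p = 0.0471) and the inhibitory G protein subunit gene Gnai1 (0.0427).

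The genes whose scaled peak numbers were most like those of each member over the 17 libraries were Hs3st5 (Pearson's r = 0.931), 4930452B06Rik (0.912) and Hdac9 (0.909) for Oprm1 and Usp38 (0.874), Golph3 (0.848) and Pja1 (0.837) for Oprk1. For Oprd1 they were Optn (0.767), Gm49333 (0.756) and Gm28539 (0.755), and for Oprl1 Taf8 (0.709), Ap3b2 (0.682) and Adgrg3 (0.680). These are descriptions over 17 points that share depth, sex and treatment with the members.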

How the data were processed

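The 17 ATAC-seq libraries of sorted neuronal nuclei fell into 6 groups, taken from the sample labels. The authors trimmed adapters, used BWA-MEM for alignment to mm10 and ran MACS2 on each library alone, with versions not given in the sources used here. The deposited peaks each have a score (10 times −log10 q), the ratio of the summit pileup to background (fold enrichment), and a p-value and q-value as −log10. The authors' caller derived these within a library, with no normalization between libraries. The authors tested read counts with DESeq2. No counts entered here, so peak calls and fold enrichments were compared instead.

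Peaks overlapping by 1 bp or more were merged, and regions called in at least 2 libraries of 1 group were kept. GENCODE vM21 gave the gene models. Library depths and the pileups behind them are given with the results, and the total read number was not used here. Peak numbers per 100000 peaks were compared within diestrus, proestrus and males by a two-sided exact permutation test (4000 assignments) over 18210 protein-coding genes. Calls were compared by Fisher's exact test in regions called in 4 to 13 libraries. Log2 fold enrichments of the 36847 regions called in all libraries, quantile normalized with no pseudocount, were fitted with limma 3.58.1 (R 4.3.3, group means, all 17 libraries). Each p was adjusted by the Benjamini-Hochberg method over all genes or regions of its test, at 0.05. The p-values measure the spread between pooled libraries. Tables were made with Python 3.11.15, and the calculations were tested on simulated data.

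The members, motifs, markers and lists of pathway genes were chosen with earlier results of these data known, and 1 marker of cortical excitatory neurons is not reported here. Named regions were those within 1 kb of a start site of the member, the 2 strongest others per gene, those that separated groups in a cocaine contrast and those past a threshold. The male against female test of peak numbers (2352 assignments) and a correction for GC content were chosen after seeing the data. Replicate numbers were not treated as pairs: of 7 pairs of same-numbered libraries, 1 had deviations correlated above 0.1. No library was a copy of another, as at most 0.0728% of intervals were identical in any pair. Alternatives were a stricter q, equal peak numbers, other overlaps and windows, unscaled numbers, base pairs covered, median centring, separate fits, uncalled regions set to the smallest fold enrichment, an adjusted p of 0.1 and leaving out each library.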

Additional observations from a re-analysis of the deposited data

Results flagged for a closer look

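Of the 9 member regions called in all libraries, 3 passed a limma test of the male minus female effect of cocaine (16.5% of all). Each of these calls was lost in some fit that left out a single library. At Oprm1 +127.9 kb the male minus female effect was −0.96 on the log2 scale, with male controls above and male cocaine libraries among the female values. At Oprm1 +191.6 kb, near an Ipcef1 start site, it was −0.84, and −0.47 without male cocaine 2. At Oprd1 +35.0 kb it was 0.75, with a cocaine difference of 0.30 in males, −0.56 in diestrus and −0.32 in proestrus. Of the 4 cortical excitatory neuron genes reported here, promoter peaks were called at 4 in each male control and at 0 in male cocaine. They were called at 2 in each proestrus control and at 0 to 1 in diestrus controls. The part of such cells in the Oprm1 values was not tested. The search for single outlying libraries needs at least 4 in a group and was not applied to groups of 2 and 3.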

How the results depend on the processing

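With peaks of −log10 q of at least 5, the member regions gained and lost in diestrus became 2 and 0, those gained in males 1, those separating diestrus from proestrus controls 1, and those separating diestrus or male from proestrus cocaine libraries 0 each. With the same number of peaks in every library (75458), the regions gained and lost were 2 and 0 in diestrus and 2 and 3 in males, and 1 was gained in proestrus. The regions separating the controls were then 1 (diestrus, proestrus), 4 (male, diestrus) and 4 (male, proestrus), and those separating diestrus or male from proestrus cocaine libraries 0 each. The cause was not tested. Without scaling, the difference at Oprl1 reversed to −0.278 peaks (adjusted p = 0.893) and 1833 genes passed in place of 669. With the gene body alone, Oprd1 reversed to +0.183 (0.758), and with 50 kb each side Oprk1 passed (+1.82, 0.0315).

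Fitted separately, 0 member regions passed for diestrus cocaine and 2 for male cocaine. With uncalled regions set to the smallest fold enrichment, all 43 regions entered. Then 4, 3 and 7 passed for cocaine in diestrus, proestrus and males. Between controls 1, 14 and 12 passed (diestrus against proestrus, male against diestrus, male against proestrus). Between male and diestrus or proestrus cocaine 4 and 1 passed, and 9 for the male minus female effect. Lost in this setting were the diestrus calls at Oprk1 +0.1 kb (limma, adjusted p = 0.0532) and Oprd1 +35.0 kb (0.107). So was the male minus female call at Oprm1 +127.9 kb (0.0617). Some regions entered only through the group that called them, and libraries without a call take a set low value. The rule for keeping regions thus favors such calls, and these counts are no support for the others. At an adjusted p of 0.1, 4 passed for diestrus cocaine, 2 for male cocaine and 1 each for male against diestrus and proestrus cocaine. Over all 36847 regions, separate fits called 39 for diestrus cocaine (3406 in the joint fit), 1001 for proestrus (1565) and 4472 for male cocaine (2946). Between controls of both stages they called 492 (173), median centring 98 and the GC correction 381. After cocaine, separate fits called 0 (490) for males against diestrus and 3 (772) against proestrus, and the GC correction 365 against proestrus. With uncalled regions included, the counts of 147420 in the order given above were 5806, 6152 and 21446 for cocaine, 6373, 31049 and 27606 between controls, 6291 and 5797 between male and female cocaine and 22303 for the male minus female effect.

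Leaving out 1 library at a time, the regions gained and lost in diestrus ranged from 0 to 3 and from 1 to 4, and those lost in proestrus from 0 to 1. The regions separating diestrus from proestrus controls ranged from 3 to 5, male from diestrus controls from 8 to 13, diestrus from proestrus cocaine from 1 to 3, male from diestrus cocaine from 3 to 6 and male from proestrus cocaine from 2 to 7. The difference in peaks per 100000 ranged from −0.259 to +0.0550 at Oprd1, reversing at +0.0326, +0.0235, +0.0303 and +0.0550, and from +0.982 to +1.26 at Oprk1. Member regions past the threshold in strength ranged from 0 to 5 (diestrus cocaine), 0 to 2 (male cocaine), 1 to 2 (male against proestrus control), 0 to 3 and 0 to 1 (male against diestrus and proestrus cocaine) and 0 to 4 (male minus female effect).

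With the replicate block, the proestrus difference at Oprm1 +82.8 kb was 0.73, and each of the 13 named differences in strength stayed past the threshold. With the block, 437 regions were called for proestrus cocaine, 120 for males against diestrus cocaine and 4 for males against proestrus cocaine. No gene passed in peak number, where the smallest p possible was 0.0156. Same-numbered libraries had deviations correlated at −0.228 to 0.149, and 3 libraries correlated best with their own number, so the numbers were not read as a pairing. The GC correction, chosen after seeing the data, changed no named call. Of the group levels of fold enrichment, 27 moved by more than 1 SD when scaled to the median of the library or taken from the most central peak, and 81 did not. Depth limits the calls, since the weakest called summits held 15 to 20 reads. The male cocaine libraries held the fewest peaks, but their background pileup was not the lowest. It was 8.15 and 7.60 reads, against 6.84, 6.26 and 8.11 in the male controls. Depth behind a missing call is not known.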
